A study of Mus musculus with 7 samples.

Results

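Potassium channel genes and the genes of their attached subunits were taken as every gene row whose symbol starts with Kcn. They number 99 of the 27998 gene rows in the single-nucleus profiles of mouse striatum, and they fall into 19 groups by the letter that follows Kcn. The striata came from 7 male C57BL6/J mice: 3 WT mice aged 14 months, and 4 HttQ175/+ mice, of which 3 were 14 months old and 1 (HttQ175/+ replicate 1) was 15 months old. HttQ175/+ mice carry 1 Htt allele with a long CAG repeat at the mouse's own locus, in every cell, and serve as a model of Huntington's disease; the second Htt allele is normal. Each mouse gave 1 library, the nuclei carry the submitters' cell type names, and 4524 nuclei of 12 types were used.

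Potassium channels let potassium leave or enter the cell, which sets the resting voltage and ends each action potential. The family holds voltage-gated pores (Kcna, Kcnb, Kcnc, Kcnd, Kcnh, Kcnq), calcium-activated and sodium-activated pores (Kcnm, Kcnn, Kcnt), inward rectifiers (Kcnj) and leak channels with a pair of pore domains (Kcnk), together with attached subunits that change how a pore opens or where it sits (Kcnab, Kcne, Kcnip, Kcnmb). In striatal spiny projection neurons (SPNs), inward rectifier and A-type currents are known for holding the cell at a very negative voltage and for delaying its first spike. SPNs are divided into a direct pathway type (dSPN) and an indirect pathway type (iSPN), the most numerous neurons of the striatum.

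Of the 99 rows, 5 encode no protein: Kcnq1ot1, Kcnd3os, Kcnab3os, Kcnmb4os1 and Kcnmb4os2. Unique molecular identifiers (UMIs), each standing for 1 captured RNA molecule, were absent for 9 members and numbered 1 to 14 for 19 more. A filter on low values let 43 members into a test in at least 1 cell type and 5 members into all 5 tested types, and 56 members were tested in none. The Kcn rows took 0.612% to 0.657% of a mouse's UMIs, and Kcnq1ot1 alone held 30.1% of the 65062 Kcn UMIs. A library held 338 to 1239 nuclei and 872558 to 2256178 UMIs, with 1128 to 5632 UMIs in a nucleus; the median per nucleus was 2498 to 2599 UMIs in WT mice and 1657 to 2384.5 in HttQ175/+ mice, so the HttQ175/+ nuclei were shallower over all types together. A total of 6 nuclei had a barcode that also occurred in another library. Levels are given as CPM, UMIs per 1000000: the mean over a mouse's nuclei of one type, each nucleus counting equally. They are UMI counts and are not divided by gene length. A gene's level is compared between mice and types. Genes are ranked or summed only to choose or describe members, with no test between genes.

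Markers were summed in the 5 tested types only, so the names of the other types rest on the submitters. In WT mice 5 dSPN markers summed to 1164 to 1546 CPM in dSPNs and 44.9 to 139 CPM in iSPNs. The 5 iSPN markers summed to 124.5 to 185 CPM in WT dSPNs and 1964 to 2669 CPM in WT iSPNs. Sums over 5 markers of both SPN types were 7466 to 8109 CPM in WT dSPNs and 8720 to 8848 CPM in WT iSPNs. The same sums were 3308 to 3705 CPM in HttQ175/+ dSPNs and 3825 to 4477 CPM in HttQ175/+ iSPNs, below every WT mouse. SPN markers were also counted in nuclei named oligodendrocytes, at 2310 to 2928 CPM in WT mice and 1162 to 2223 CPM in HttQ175/+ mice. How much of an SPN gene's level in glial nuclei came from free RNA was not tested.

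**Figure D1:**
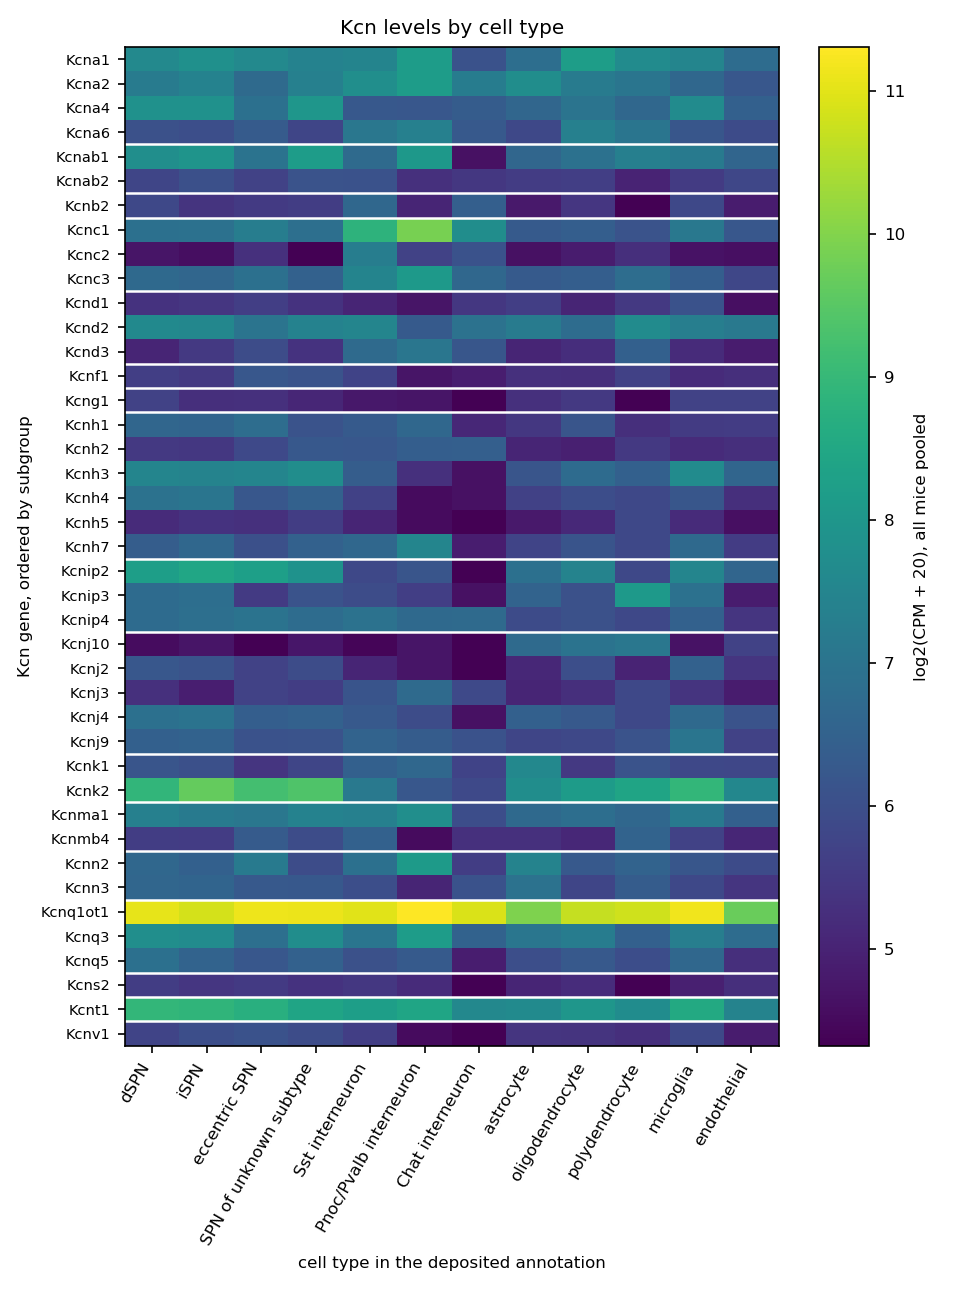
Level of 41 of the 43 tested Kcn genes (rows, ordered by subgroup with white lines between subgroups) in 12 cell types (columns), as log2(CPM + 20) over all mice pooled. Along its own row, Kcnc1 is brightest in Pnoc/Pvalb interneurons, Kcnk2 and Kcnip2 in iSPNs and Kcnt1 in dSPNs. The pool mixes the genotypes in parts that differ between types. In WT mice alone the mean of Kcnip2 was 448 CPM in dSPNs and 440 CPM in iSPNs.

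Members described in SPNs for their WT CPM include Kcnt1, the sodium-activated channel Slack, the leak channel gene Kcnk2, Kcnip2 and the M-current gene Kcnq3. Kcnq3 stood at 196 ± 57.5 CPM (SD, n = 3) in WT dSPNs and at 182 ± 41.1 CPM in WT iSPNs. The voltage-gated Kcna1 and the A-type pore genes Kcna4 and Kcnd2 stood at 171 ± 13.0, 216 ± 29.7 and 181 ± 21.6 CPM in WT dSPNs. In WT iSPNs they stood at 213 ± 26.0, 204 ± 63.4 and 160 ± 31.4 CPM, overlapping the dSPN values for Kcna4 and Kcnd2. Kcnh3, an ether-à-go-go family pore gene like Kcnh4, stood at 158 ± 68.4 CPM in WT dSPNs and 167 ± 55.4 CPM in WT iSPNs.

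Interneurons held other members. Kcnc1, a fast delayed rectifier pore gene known from fast-spiking cells, was at 1011 and 954 CPM in the Pnoc/Pvalb interneurons of the 2 WT mice with at least 10 such nuclei, and at 740.4, 812.5 and 922 CPM in 3 HttQ175/+ mice. In Sst interneurons it was at 296, 256 and 362 CPM in WT mice and at 408, 408, 309 and 548 CPM in HttQ175/+ mice. The highest Kcnc1 value of any mouse was 112 CPM in dSPNs and 150.4 CPM in iSPNs, below every interneuron value just given. Other types were less apart: Chat interneurons of 3 HttQ175/+ mice gave 133.7, 278 and 156 CPM of Kcnc1, and eccentric SPNs reached 218 CPM. Kcnip1, which encodes a calcium-binding subunit of the A-type pores, had 46 UMIs in Pnoc/Pvalb interneurons, or 149 CPM pooled over mice (exact 95% Poisson interval 109 to 199). It had 3 UMIs in all dSPN nuclei, or 0.709 CPM (0.146 to 2.07), and these intervals cover counting error only.

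Kcnt2, the sodium-activated channel Slick, was highest in Chat interneurons, the cholinergic cells. Its pooled level there was 548 CPM (115 UMIs, interval 452 to 658), and it was 35.5 CPM (22.8 to 52.8) in Sst interneurons and 13.5 CPM (10.2 to 17.5) in dSPNs. The 3 HttQ175/+ mice with at least 10 Chat nuclei gave 472, 355 and 844 CPM. WT mice gave only 6 Chat nuclei in all, with 6 Kcnt2 UMIs, so no genotype comparison was made there. Of the members with at least 15 UMIs, 19 had their highest pooled level in Pnoc/Pvalb interneurons (120 nuclei) and 9 in polydendrocytes (78 nuclei), against 4 in dSPNs (1809 nuclei). Levels of types with few nuclei vary more by counting alone, and some of the 19 rested on few UMIs there, such as Kcnmb2 with 7 and Kcnj6 with 6, so these counts were not tested and are a description.

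The members described in glial and vascular nuclei were not all particular to them. Kcnk2 had its highest pooled level in iSPNs (789 CPM), and Kcnip3 stood at 149, 109 and 124 CPM in WT iSPNs. Kcnj8, the pore of a vascular ATP-sensitive channel, was at 285 CPM (63 UMIs, interval 219 to 364) in endothelial nuclei and at 0.709 CPM in dSPNs. Of single mice with at least 10 endothelial nuclei, WT replicate 1 gave 699.6 CPM of Kcnj8 and 3 HttQ175/+ mice gave 268, 141 and 505 CPM. Kcnk2 was at 272 CPM in that WT mouse and at 56.0, 246 and 0 CPM in those HttQ175/+ mice, spread too widely for 1 WT mouse to be set against them. Kcne4, a single-pass attached subunit, was at 58.7 CPM (31.3 to 100.4) in the same nuclei. Kcnk1, a leak channel gene, was at 244, 257 and 198 CPM in WT astrocytes and at 203.5, 171, 125 and 184 CPM in HttQ175/+ astrocytes. Kcnj10, the main glial inward rectifier, was at 142, 117 and 131 CPM in WT astrocytes and at 63.2, 109, 65.3 and 95.6 CPM in HttQ175/+ astrocytes. In polydendrocytes, the oligodendrocyte progenitors, 1 WT mouse and 4 HttQ175/+ mice had at least 10 nuclei. Kcnip3 was at 299 CPM in that WT mouse and at 316, 197, 608 and 491 CPM in the HttQ175/+ mice. Kcnj10 was at 349 CPM in that WT mouse and at 40.6, 129, 0 and 167 CPM in the HttQ175/+ mice. With 11 to 17 nuclei behind each of these values and 1 WT mouse, no genotype comparison was made. In eccentric SPNs, Kcnk2 was at 917 and 419.5 CPM in 2 WT mice and at 380.4, 628, 453 and 574 CPM in HttQ175/+ mice, which overlap.

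Levels were compared between genotypes with mice as replicates, by limma on log2(CPM + a pseudocount worth 2 UMIs), over all genes that passed the filter; a call is an adjusted p under 0.05. In dSPNs 3 of 41 tested members were lower in HttQ175/+ mice (Kcnip2, Kcnh4 and Kcnk2) and 1 was higher (Kcnq1ot1). Over all 8796 genes tested there, 2.47% were called lower and 1.47% higher. In iSPNs 3 of 31 tested members were lower (Kcnip2, Kcnh4 and Kcnip3) and 1 was higher (Kcnq1ot1), beside 1.76% lower and 0.525% higher of 5908 genes. In the average of a mouse's dSPN and iSPN values, 3 of 31 members were lower (Kcnip2, Kcnh4 and Kcnk2) and 1 was higher (Kcnq1ot1), beside 3.64% lower and 1.73% higher of 5903 genes. The Kcnh4 and Kcnk2 falls were known from earlier results of these data when the members were chosen. The p-values set each genotype difference against the spread between these mice. Labels do not say how the mice were bred or housed, so whether litter or cage went with genotype is not known.

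The median log2 change of the tested members was -0.08 in dSPNs, where that of all tested genes was 0.03, and -0.02 in iSPNs, where that of all genes was 0.00. Without scaling by trimmed means the medians of the members were 0.03 and 0.09 and those of all genes 0.14 and 0.10, so the sign of the family median depended on the scaling. The share of calls that were lower, over all genes, was 62.7% in dSPNs and 77.0% in iSPNs, and without that scaling it was 41.8% and 63.6%. Each of the members named above as lower in dSPNs, and Kcnip2 and Kcnh4 in iSPNs, was also called lower without it, while Kcnip3 in iSPNs was not (adjusted p = 0.0839).

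**Figure D2:**
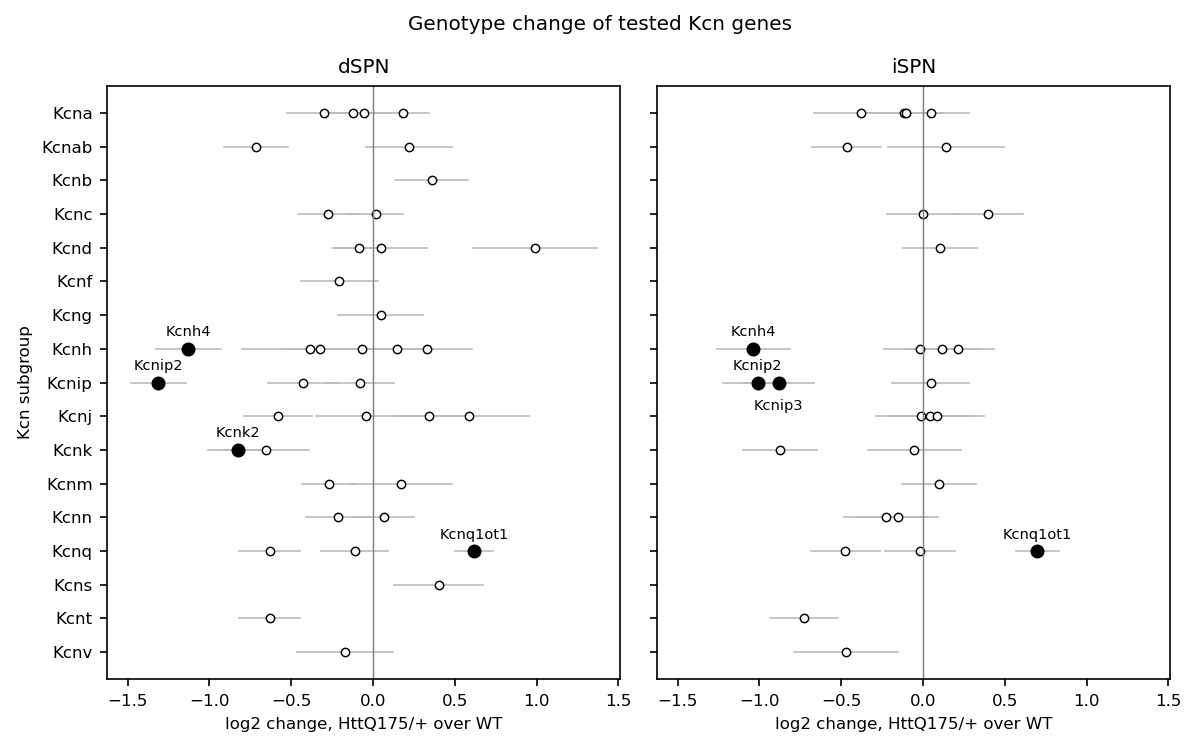
Log2 change of HttQ175/+ over WT (x axis) of tested Kcn genes by subgroup (y axis) in dSPNs and iSPNs. Bars are ±1 SE, filled points passed adjusted p 0.05 and are named, and most open points lie within 0.5 of 0.

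Upstream sequence is shown for the 5 members called by genotype in an SPN type, because these are the genes whose levels moved. RefSeq start sites on GRCm38.p6, the build mm10, gave 97 windows for 72 Kcn genes. The windows hold 250 bases before a start. Each is printed 5′ to 3′ on the gene's own strand, and only as far as it lies outside the annotated gene. Capitals mark GGGCGG (the GC box), TATAAA or TGACG (the short cyclic AMP response element), searched on both strands. Kcnk2 and Kcnip3 have 4 and 3 windows, of which only the farthest upstream lay outside the gene.
Kcnip2 (chr19:45816064-45816313): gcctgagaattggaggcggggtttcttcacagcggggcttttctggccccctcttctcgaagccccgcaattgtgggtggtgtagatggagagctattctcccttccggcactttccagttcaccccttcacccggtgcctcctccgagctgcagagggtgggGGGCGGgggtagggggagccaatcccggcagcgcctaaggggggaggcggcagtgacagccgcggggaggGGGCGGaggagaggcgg
Kcnh4 (chr11:100759943-100760028): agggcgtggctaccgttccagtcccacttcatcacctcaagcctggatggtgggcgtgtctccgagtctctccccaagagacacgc
Kcnk2 (chr1:189402274-189402523): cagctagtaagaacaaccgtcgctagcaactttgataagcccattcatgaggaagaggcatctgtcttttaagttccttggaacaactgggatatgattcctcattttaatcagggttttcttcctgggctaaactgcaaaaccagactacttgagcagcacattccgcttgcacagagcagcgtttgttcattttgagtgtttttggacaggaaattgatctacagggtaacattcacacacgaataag
Kcnip3 (chr2:127522095-127522344): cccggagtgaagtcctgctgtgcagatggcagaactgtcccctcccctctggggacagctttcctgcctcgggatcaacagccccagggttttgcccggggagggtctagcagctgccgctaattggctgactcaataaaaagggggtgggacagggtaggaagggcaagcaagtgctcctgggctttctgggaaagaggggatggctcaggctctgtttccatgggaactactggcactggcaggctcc
Kcnq1ot1 (chr7:143296550-143296797): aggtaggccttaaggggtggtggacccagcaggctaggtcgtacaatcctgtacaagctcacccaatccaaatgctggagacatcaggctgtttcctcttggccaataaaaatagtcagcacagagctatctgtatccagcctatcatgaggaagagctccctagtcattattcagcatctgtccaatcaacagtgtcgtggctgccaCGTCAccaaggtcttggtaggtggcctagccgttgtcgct

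The Kcnip2 window held 2 GC boxes and was 66.8% G or C, and the whole 250-base Kcnh4 window held 1 GC box, outside the printed bases, and was 70.8% G or C. The Kcnk2 window (42.4% G or C) and the Kcnip3 window held none of the motifs. The Kcnq1ot1 window (51.2%) held 1 TGACG, read on the opposite strand. Of all 97 Kcn windows 44.33% held GGGCGG, where 32.74% of the 32851 windows of all genes did. TATAAA was in 3.09% of Kcn windows and 12.37% of all windows, and TGACG in 16.49% and 17.77%. The median G or C share was 58.8% for Kcn windows and 52.4% for all. Windows of the same gene overlap, and these shares are a description of the letters, with no test.

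Kcnip2 encodes a calcium-binding subunit that attaches to the A-type pores of the Kcnd group and raises their surface level. It lies at chr19:45791839-45816061 (mm10, minus strand). In dSPNs it stood at 467, 425 and 453 CPM in WT mice and at 179, 162, 258.5 and 186 CPM in HttQ175/+ mice. The groups did not overlap, and the highest HttQ175/+ mouse lay well under the lowest WT mouse. The log2 change was -1.31 ± 0.17 (SE, adjusted p = 0.000719). In iSPNs it stood at 465.5, 326 and 528 CPM in WT mice and at 189.7, 212, 271 and 244 CPM in HttQ175/+ mice, again without overlap. The log2 change there was -1.01 ± 0.21 (adjusted p = 0.0172), a call lost without HttQ175/+ replicate 1 or WT replicate 1 or 3 (adjusted p = 0.061, 0.0975 and 0.113). That of the average of both types was -1.16 ± 0.17 (adjusted p = 0.0026). In eccentric SPNs, where too few WT mice had 10 nuclei for a test, it was at 386 and 547 CPM in 2 WT mice and at 83.3, 235, 229 and 188 CPM in HttQ175/+ mice.

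The other subunits of the Kcnip group did not all follow. Kcnip3, whose calcium-binding product is also known as a transcriptional repressor, stood at 149, 109 and 124 CPM in WT iSPNs and at 66.9, 59.9, 74.3 and 80.9 CPM in HttQ175/+ iSPNs. The groups did not overlap, with a log2 change of -0.88 ± 0.22 (adjusted p = 0.0436). Its call was the least stable: it passed under 6 of 15 alternative settings and was lost when any 1 of the 7 mice was left out. In dSPNs Kcnip3 stood at 125, 84.7 and 95.9 CPM in WT mice and at 78.2, 63.3, 80.1 and 104 CPM in HttQ175/+ mice, which overlap (log2 change -0.43 ± 0.21, adjusted p = 0.313). Kcnip4, of the same subunit group, had log2 changes of -0.08 ± 0.21 in dSPNs and 0.05 ± 0.23 in iSPNs (adjusted p = 0.884 and 0.958). The A-type pore that these subunits attach to, Kcnd2, stood at 164, 205.5 and 174 CPM in WT dSPNs and at from 170.5 to 216 CPM in the 4 HttQ175/+ mice. Its log2 changes were -0.08 ± 0.16 in dSPNs and 0.10 ± 0.23 in iSPNs (adjusted p = 0.842 and 0.888), so a fall of the pore like that of Kcnip2 was not seen. Kcnd3, a second A-type pore gene, was at 5.52, 5.73 and 8.77 CPM in WT dSPNs and 19.7, 8.94, 25.2 and 21.7 CPM in HttQ175/+ dSPNs, from few UMIs. The filter there stood at 18.3 CPM, which 3 HttQ175/+ mice and 0 WT mice reached, so Kcnd3 was tested only through the group where it is high and its test is not used.

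Kcnh4 encodes a voltage-gated pore of the ether-à-go-go-like branch and lies at chr11:100740376-100759942 (mm10, minus strand). In dSPNs it stood at 176, 174.6 and 136 CPM in WT mice and at 96.6, 69.4, 91.3 and 59.6 CPM in HttQ175/+ mice. In iSPNs it stood at 207, 141.5 and 143.5 CPM in WT mice and at 78.7, 78.2, 102 and 67.1 CPM in HttQ175/+ mice. Neither type overlapped between genotypes. The log2 changes were -1.13 ± 0.20 (adjusted p = 0.00514) in dSPNs and -1.04 ± 0.22 (adjusted p = 0.0201) in iSPNs. The iSPN call was lost without HttQ175/+ replicate 1 or 4 or WT replicate 1 or 3 (adjusted p = 0.0562, 0.0562, 0.128 and 0.0572). The other 5 tested Kcnh genes in dSPNs (Kcnh1, Kcnh2, Kcnh3, Kcnh5 and Kcnh7) did not pass, with adjusted p from 0.531 to 0.914.

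Kcnk2 encodes a leak channel that responds to stretch, lipids and acid, and lies at chr1:189207930-189402273 (mm10, minus strand). In dSPNs it stood at 582, 631 and 568 CPM in WT mice and at 388, 498, 317 and 276 CPM in HttQ175/+ mice, without overlap. The log2 change was -0.83 ± 0.18 (adjusted p = 0.0184). That call was lost when any one of WT replicates 1 and 3 and HttQ175/+ replicates 3 and 4 was left out (adjusted p = 0.0735, 0.0538, 0.054 and 0.0617). In iSPNs it stood at 994, 1017 and 1025 CPM in WT mice and at 652, 721, 766 and 344 CPM in HttQ175/+ mice. These did not overlap either, but the HttQ175/+ mice were spread widely and the log2 change of -0.87 ± 0.23 did not pass (adjusted p = 0.0552). It did pass with limma-voom, median of ratios scaling, a pseudocount of 5 UMIs or summed UMIs, and without HttQ175/+ replicate 2 or 3.

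**Figure D3:**
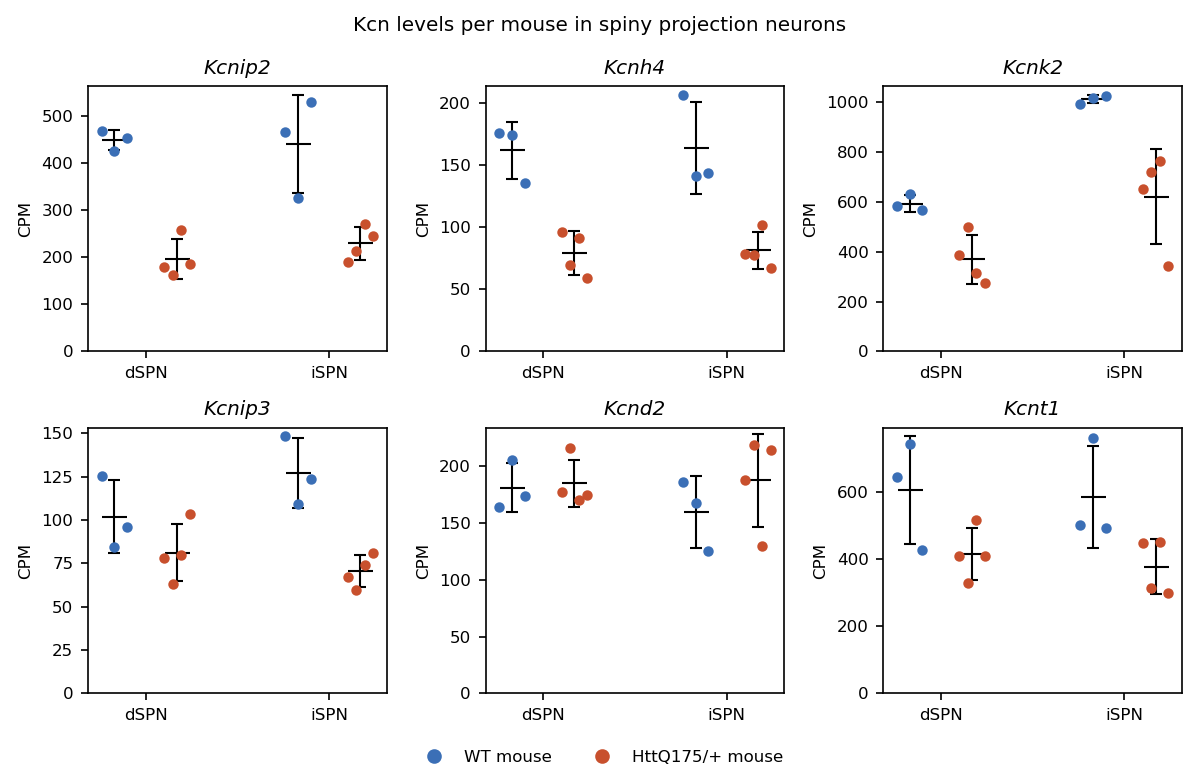
CPM per mouse (y axis, from 0) of 6 Kcn genes in dSPNs and iSPNs, each point 1 mouse, blue WT (n = 3) and orange HttQ175/+ (n = 4), with the mean and SD in black. Kcnip2, Kcnh4 and Kcnk2 do not overlap between genotypes in either type, whereas Kcnd2 does in both.

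Kcnk2 was also the member that differed between the 2 SPN types. Its dSPN level was below its iSPN level in all 7 mice, from 568 against 1025 CPM in WT replicate 3 to 276 against 344 CPM in HttQ175/+ replicate 4. With the mouse as a block, the dSPN minus iSPN log2 difference was -0.75 ± 0.09 (adjusted p = 2.68e-07), and in the WT mice alone -0.77 ± 0.13 (adjusted p = 0.000377). It was the only one of 31 members to pass in this comparison, in which 2.46% of 5903 genes passed. The types were named by the submitters from these same nuclei, so the difference describes their types. Kcnq1ot1 (0.16 ± 0.05, adjusted p = 0.0934) and Kcnh7 (-0.41 ± 0.14, adjusted p = 0.14) came next and did not pass. In the WT mice alone the next were Kcnq1ot1 (0.20 ± 0.08, adjusted p = 0.223) and Kcna2 (-0.46 ± 0.19, adjusted p = 0.259), which did not pass.

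**Figure D4:**
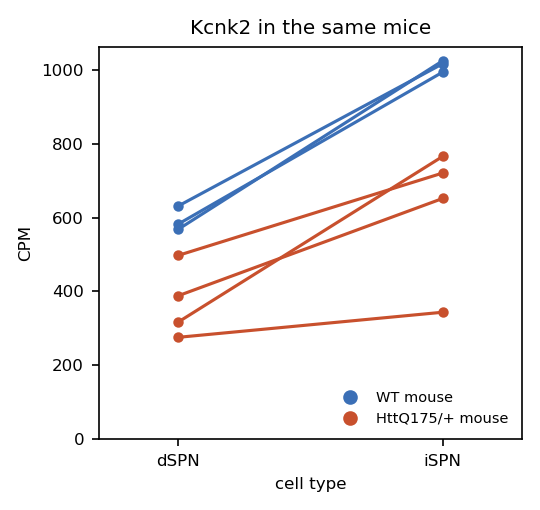
Kcnk2 CPM (y axis, from 0) in dSPNs and iSPNs (x axis), a line joining the values of each of the 7 mice. Every line rises from dSPN to iSPN, and at each type the HttQ175/+ mice (orange) lie below the WT mice (blue).

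Whether the genotype change differed between dSPNs and iSPNs was tested by the interaction. No member of 31 passed in limma (1 of 31 had an unadjusted p under 0.05, none passed with limma-voom), and 0.0169% of all genes did. Counts of unadjusted p under 0.05, here and below, are a description, as the share of all genes with such a p was not counted. Among the smallest p-values were those of the inward rectifier Kcnj2 (difference -0.66, adjusted p = 0.782) and Kcnip3 (0.45, adjusted p = 0.814). A call in only one of the 2 types in the fits as designed, as for Kcnip3 and Kcnk2, is therefore not shown to be a difference between them.

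The next 3 members lay lower without passing in the fits as designed, and each passed under some alternatives. Kcnq5, an M-current pore gene, stood at 109, 124 and 145 CPM in WT dSPNs and at 96.1, 80.9, 73.7 and 96.3 CPM in HttQ175/+ dSPNs, and the genotypes did not overlap in iSPNs either (83.3 to 99.7 against 61.0 to 77.3 CPM). Its log2 change in the average of both types was -0.55 ± 0.15 (adjusted p = 0.0502), which passed with limma-voom, median of ratios scaling, a pseudocount of 5 UMIs or summed UMIs. Kcnt1 was at 427 to 742 CPM in WT dSPNs and 329 to 516.5 CPM in HttQ175/+ dSPNs, with -0.68 ± 0.18 in the average of both types (adjusted p = 0.0512). It passed there under the same 4 alternatives, with no filter and without HttQ175/+ replicate 3 or WT replicate 3. Kcnab1, a cytoplasmic subunit of the Kcna pores, was at 219.5, 341.5 and 235 CPM in WT dSPNs and at 164, 186, 213 and 129 CPM in HttQ175/+ dSPNs (-0.71 ± 0.19, adjusted p = 0.0575), and passed with limma-voom, summed UMIs or without HttQ175/+ replicate 3. The M-current gene Kcnq3 overlapped between genotypes in both types.

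Counting members whose 4 HttQ175/+ mice all lay on one side of the 3 WT mice, 5 of 41 lay below in dSPNs (Kcnip2, Kcnh4, Kcnk2, Kcnq5 and Kcnab1), beside 5.26% of all genes. In iSPNs 6 of 31 lay below (Kcnip2, Kcnh4, Kcnk2, Kcnip3, Kcnq5 and Kcnt1), beside 5.4%. Above the WT mice lay 4 of 41 in dSPNs (Kcnq1ot1, Kcna2, Kcnb2 and, through the filter as said, Kcnd3), beside 12.6%, and 3 of 31 in iSPNs (among them Kcnq1ot1 and Kcnc1), beside 9.19%. The members above were thus about as frequent as among all genes. The summed level of all Kcn rows other than Kcnq1ot1 was 5118 to 5677 CPM in WT dSPNs and 4332 to 4640 CPM in HttQ175/+ dSPNs, and 5494 to 5850 against 4591 to 5101 CPM in iSPNs. Kcnip2, Kcnk2, Kcnt1, Kcnab1 and Kcnh4, picked after their lower means were seen, summed to 1818 to 2314 CPM in WT dSPNs and 1060 to 1397 CPM in HttQ175/+ dSPNs. The sum of all other Kcn rows without Kcnq1ot1, which still held Kcnq5 and Kcnip3, overlapped there, at 3029 to 3431 CPM in WT mice and 3244 to 3388 CPM in HttQ175/+ mice. It also overlapped in iSPNs (3073 to 3349 against 3208 to 3531 CPM). Both results follow from that choice of members and are no support for a change confined to them. Outside the SPNs the sum without Kcnq1ot1 lay higher in HttQ175/+ mice in astrocytes (2074 to 2317 CPM in WT mice, 2377 to 3189 CPM in HttQ175/+ mice) and Sst interneurons (3996 to 4071 against 4112 to 4546 CPM), and it overlapped in oligodendrocytes (2961 to 3519 against 2410 to 3231 CPM). With Kcnq1ot1 included, the dSPN sums overlapped (6464 to 7363 CPM in WT mice and 6828 to 7140 CPM in HttQ175/+ mice).

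Some marker sums of other cells moved with genotype as well, while most lists overlapped in each SPN type. In dSPNs the sum of 5 eccentric SPN markers was 67.1 to 85.9 CPM in WT mice and 103 to 143 CPM in HttQ175/+ mice, and that of 4 cortical excitatory markers 3.12 to 10.1 against 18.3 to 39.5 CPM. In iSPNs the eccentric SPN sum was 31.0 to 46.4 against 56.3 to 107 CPM, and that of 5 microglia markers 4.02 to 7.29 against 11.3 to 45.1 CPM. The microglia sum overlapped in dSPNs (6.50 to 23.4 against 5.83 to 34.7 CPM). So did the cortical excitatory sum in iSPNs (0 to 33.0 against 19.4 to 51.2 CPM). Astrocyte, oligodendrocyte and endothelial sums overlapped in both types. Sums of a few CPM rest on few UMIs in a mouse. The dSPN markers themselves summed to 1164 to 1546 CPM in WT dSPNs and 750.2 to 954 CPM in HttQ175/+ dSPNs, and the iSPN markers to 1964 to 2669 against 802 to 906 CPM in iSPNs. Their part in the Kcn changes was not tested.

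Kcnq1ot1 is a long RNA without a protein that stays in the nucleus, is made from the paternal chromosome and is known for silencing neighbouring genes in cis. It lies at chr7:143203458-143296549 (mm10, minus strand), inside and antisense to Kcnq1. No source used here says whether counting used the strand, so reads of Kcnq1 cannot be told apart from it by that alone; the row Kcnq1 itself had 0 UMIs in dSPNs and iSPNs. In dSPNs it stood at 1346, 1686 and 1344 CPM in WT mice and at 2205, 2342, 2500 and 2617 CPM in HttQ175/+ mice. The log2 change was 0.62 ± 0.12 (adjusted p = 0.00857). In iSPNs it stood at 1327, 1385 and 1081 CPM in WT mice and at 1921, 2310, 2338 and 2308 CPM in HttQ175/+ mice (0.70 ± 0.13, adjusted p = 0.00901). The genotypes did not overlap in either type. The call was lost in dSPNs without WT replicate 1 (adjusted p = 0.0573) and in iSPNs without WT replicate 3 (adjusted p = 0.0524). With no filter on low values it was lost in both types (adjusted p = 0.101 and 0.0573), where the log2 changes were as before.

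Outside the SPNs, 3 types could be tested for Kcnq1ot1. In astrocytes Kcnq1ot1 stood at 417.5, 551 and 413 CPM in WT mice and at 788, 1107, 603 and 920.5 CPM in HttQ175/+ mice. In oligodendrocytes it stood at 1350, 743 and 860 CPM against 1729, 1768, 1638 and 1744 CPM, and in Sst interneurons at 1588, 1606 and 1634 CPM against 1858, 1862, 2503 and 2046 CPM. Every HttQ175/+ mouse lay above every WT mouse in all 5 tested types. None of the 3 changes passed (log2 0.81 ± 0.29, 0.82 ± 0.26 and 0.40 ± 0.18, adjusted p = 0.235, 0.155 and 0.642). The 5 types of a mouse come from 1 library and are not independent. In types with too few nuclei for a test the order was not always the same. Kcnq1ot1 in eccentric SPNs was at 1897 and 2026 CPM in 2 WT mice and at 2118, 2363, 2202 and 2381 CPM in HttQ175/+ mice, without overlap. In endothelial nuclei it was at 39.0 CPM in 1 WT mouse and 682, 1166 and 582.5 CPM in 3 HttQ175/+ mice. That WT mouse had only 14 such nuclei. Pooled over all 29 WT endothelial nuclei, Kcnq1ot1 had 18 UMIs, or 312 CPM, and no genotype comparison was made there. In Pnoc/Pvalb interneurons it was at 2451 and 2515 CPM in WT mice and at 2243, 2100 and 3143 CPM in HttQ175/+ mice, and in polydendrocytes at 1765 CPM in 1 WT mouse and 1584, 1949, 1709 and 1413 CPM in HttQ175/+ mice, which overlap. The median depth of a mouse's nuclei was lower in HttQ175/+ mice in dSPNs (1647 to 2636 UMIs against 2716 to 2816 in WT mice) and in iSPNs (1547 to 2391 against 2398 to 2660). It overlapped in oligodendrocytes (1788 to 2741 against 1902 to 2462) and Sst interneurons (1726 to 2516 against 2316 to 2637), and in astrocytes 3 of 4 HttQ175/+ mice lay above all WT mice (1410.5 to 2383 against 1339 to 1472.5).

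**Figure D5:**
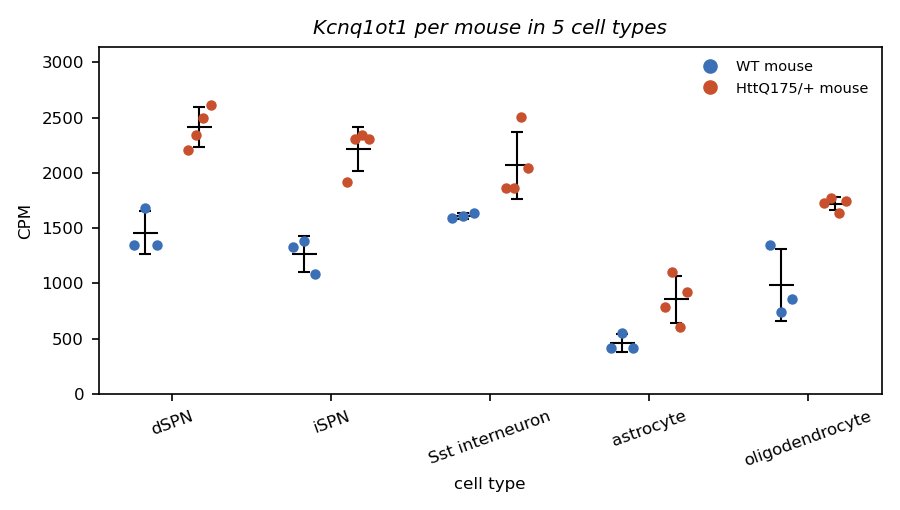
Kcnq1ot1 CPM per mouse (y axis, from 0) in the 5 tested cell types (x axis), blue WT (n = 3) and orange HttQ175/+ (n = 4), with the mean and SD in black. In each type the lowest HttQ175/+ mouse lies above the highest WT mouse, and astrocytes are lowest overall.

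In Sst interneurons none of 18 members passed in limma, where 0.0% of 2296 genes did, and none passed with limma-voom. Kcnq1ot1 had an unadjusted p under 0.05. The small unadjusted p of Kcnc2 is not counted, for the reason given below. Kcnc2, a fast delayed rectifier pore gene known from these cells, stood at 16.4, 26.3 and 79.0 CPM in WT mice and at 141, 125, 232 and 225 CPM in HttQ175/+ mice, without overlap. In these nuclei 3 of 18 members lay wholly above the WT mice, beside 91 of 2296 genes. The filter stood at 112 CPM, which 4 HttQ175/+ mice and 0 WT mice reached, so Kcnc2 entered the test only through the group where it is high and its test is not used. Behind the WT values were 9 UMIs in 77 nuclei and behind the HttQ175/+ values 83 UMIs in 211 nuclei. Kcna2 stood at 113, 133 and 121 CPM in WT mice and at 157, 161, 216 and 194 CPM in HttQ175/+ mice (0.53 ± 0.28, adjusted p = 0.662). In these nuclei the sum of 5 iSPN markers was 275 to 427 CPM in WT mice and 81.0 to 188 CPM in HttQ175/+ mice, and that of 4 oligodendrocyte progenitor markers 0 to 32.5 against 35.9 to 91.7 CPM. The other marker lists overlapped, and the part of these sums in the Kcn values was not tested.

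In astrocytes none of 9 members passed in limma, where 0.0% of 1873 genes did, and none passed with limma-voom. Kcnq1ot1 had an unadjusted p under 0.05. The small unadjusted p of Kcnd2 is not counted, for the reason given below. Kcnd2 stood at 32.8, 17.4 and 63.2 CPM in WT mice and at 123, 193, 52.6 and 214.5 CPM in HttQ175/+ mice, which overlap. For Kcnj10, whose values are given above, the HttQ175/+ mice all lay below the WT mice, as they did for 114 of 1873 genes tested there. The filter stood at 113.5 CPM, which for Kcnd2 was reached by 3 HttQ175/+ mice and 0 WT mice, and for Kcnj10 by 3 WT mice and 0 HttQ175/+ mice. Each thus entered the test only through the group where it is high, and these tests are not used. In HttQ175/+ astrocytes the sum of 5 microglia markers was 106 to 380.2 CPM and in WT astrocytes 0 to 46.8 CPM. That of 5 oligodendrocyte markers was 1045 to 2076 against 537 to 1021 CPM, and that of 4 cholinergic markers, with Chat itself at 0, 8.62 to 30.8 against 0 CPM. The cholinergic sums rest on few UMIs, as the astrocytes of a WT mouse held only 40870 to 88114 UMIs. The sum of 4 mural markers was lower, at 246.5 to 364 CPM against 368 to 481 CPM. The sum of 5 astrocyte markers overlapped (7888 to 12650 against 11690 to 13690 CPM), as did the marker lists not named here. The part of all these in the Kcn values was not tested.

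In oligodendrocytes none of 17 members passed in limma, where 0.658% of 3650 genes did. An unadjusted p under 0.05 was found for 6 members, without a share of all genes to set it against, and 1 (Kcnq1ot1) passed with limma-voom. Kcna6, a delayed rectifier pore gene, stood at 307, 174.9 and 393 CPM in WT mice and at 71.8, 104, 175.1 and 139 CPM in HttQ175/+ mice, which meet at the lowest WT mouse (-1.17 ± 0.34, adjusted p = 0.124). Kcnip2 stood at 185, 156 and 163 CPM in WT mice and at 101, 98.3, 89.4 and 99.4 CPM in HttQ175/+ mice, without overlap (-0.72 ± 0.29, adjusted p = 0.257). The SPN marker sums in these nuclei, given above, were lower in HttQ175/+ mice too, as were the iSPN marker sums (368 to 457 CPM in WT mice and 123 to 307 CPM in HttQ175/+ mice). The nuclei's own 5 oligodendrocyte markers summed to 23300 to 26180 CPM in WT mice and 9225 to 20080 CPM in HttQ175/+ mice, also without overlap. The other marker lists overlapped, and the part of all these in the Kcna6, Kcna1 and Kcnip2 values was not tested. Kcna1 stood at 371, 465 and 321 CPM against 218, 229, 296.5 and 223 CPM, without overlap (-0.66 ± 0.28, adjusted p = 0.299). Kcnip2 and Kcna1 were thus 2 of 17 members wholly below the WT mice, beside 167 of 3650 genes.

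A list of 24 partner genes outside the Kcn symbols, such as Dpp6 and Dpp10 of the A-type complex, the Hcn pores, and the Lgi and Adam proteins that bind Kcna pores, was described by count. Of its genes 17 were tested in dSPNs and 13 in iSPNs, and limma called none by genotype in either type; 2 and 4 had an unadjusted p under 0.05, and limma-voom called none. Dpp6 overlapped between genotypes in dSPNs, at 337 to 369 CPM in WT mice and 303 to 436 CPM in HttQ175/+ mice. Dpp10 was at 41.9, 35.9 and 44.6 CPM in WT dSPNs and 65.0, 63.8, 60.9 and 67.0 CPM in HttQ175/+ dSPNs.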

How the data were processed

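Nuclei from flash-frozen striatum were profiled with 10x Chromium 3′ libraries, 1 per mouse. The submitters' processing notes name Cell Ranger 3.0.2, Seurat and mm10. The deposited values are the natural log of 1 plus UMIs scaled by the authors to 10000 per nucleus, and the deposited nuclei carry the authors' cell type names (4524 of 4524 genotypes matched the labels). Undoing the log gave whole UMIs for 100.0% of 5824756 values above 0, within 0.02. Doublets were not called here; an alternative left out the 5.0% of nuclei with most UMIs. No source used here says whether they were removed earlier.

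Linear values were averaged over a mouse's nuclei of each type, and expressed as CPM. For the fits only, a trimmed-mean scaling (trims of 30% and 5%) was applied. Tests were run on log2(CPM + 2 UMIs of the median mouse of the type) with limma 3.58.1 in R 4.3.3 (limma-trend, Benjamini-Hochberg over all tested genes). Genes needed 15 UMIs in all and 10 UMIs, at the median library sum, in 3 mice; a type needed 10 nuclei in 3 mice of each genotype, which left 5 types. CPM printed for a mouse are unscaled, so a log2 change is not the exact ratio of the printed means. Fits were tested on simulated data. The 15 alternatives were other pseudocounts, scalings, filters, sums, limma-voom and leaving out each mouse.

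The members and lists were chosen with earlier results of these data known. Values were named by rule: called members, the 3 smallest p where fewer passed, the 12 highest WT levels in each SPN type and the 2 highest mean WT CPM in other types with a WT mouse of 10 nuclei, and members not overlapping in both SPN types. Kcnt2, Kcne4, Kcnip1, Kcnip3 in polydendrocytes and the members given as nearly passing were chosen after their values were seen. Gene positions are from GENCODE vM21. Python 3.11.15 was used for the tables. Results of some members that these rules would name are not reported or drawn here.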

Additional observations from a re-analysis of the deposited data

Results flagged for a closer look

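Among the 4 HttQ175/+ mice, Kcnq1ot1 in iSPNs was 1920 CPM in HttQ175/+ replicate 1 and 2310, 2338 and 2308 CPM in the other mice, so the lowest mouse stood far from the rest by Dixon's criterion. It was the only one of 27 gene and type pairs examined, and chance alone flags about 1 in 20. That mouse is the one aged 15 months; the part of age was not tested. Its value still lay above every WT mouse.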

How the results depend on the processing

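Under all 15 alternatives Kcnip2 and Kcnh4 in dSPNs, and Kcnip2, Kcnh4 and Kcnq1ot1 in the average of both SPN types, kept their direction and passed. No other named value reversed under the 15 alternatives. Kcnd2 and Kcnj10 in astrocytes and Kcnc2 in Sst interneurons are left out of this statement. Each entered its test only through the group where it is high, so its direction is not used. Kcnq1ot1 was lost in dSPNs with no filter (adjusted p = 0.101) or without WT replicate 1, and in iSPNs with no filter (0.0573) or without WT replicate 3. The dSPN minus iSPN difference of Kcnk2 passed under all 15 too, with log2 values from -0.81 to -0.66. Kcnip3 in iSPNs was lost without trimmed-mean scaling (adjusted p = 0.0839), with no filter (0.0675) and without each mouse (up to 0.188). In iSPNs, Kcnip2 was lost without HttQ175/+ replicate 1, WT replicate 1 or WT replicate 3, and Kcnh4 without those or HttQ175/+ replicate 4. Kcnk2 in the average of both types was lost without HttQ175/+ replicate 1 or any WT mouse (adjusted p up to 0.0893).

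Members called numbered 4 in dSPNs, 7 with limma-voom and 2 to 4 with a mouse left out (2 without WT replicate 1). They numbered 4 in iSPNs, 2 with no filter and 0 to 4 with a mouse left out (0 without WT replicate 3, 1 without WT replicate 1 or HttQ175/+ replicate 1, 2 without HttQ175/+ replicate 4). In the average they numbered 4, 7 with median of ratios scaling, 7 with limma-voom and 3 to 6 with a mouse left out. For dSPN minus iSPN, 1 became 8 with a pseudocount of 5 UMIs, 23 with no filter, 2 with limma-voom and 1 to 2 with a mouse left out. In oligodendrocytes 0 became 1 with limma-voom and 0 to 1 with a mouse left out (Kcna6, without HttQ175/+ replicate 3). Shares of all genes under the same settings were not set beside these member counts, which are a description.

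Over all genes, with a mouse left out, calls ranged from 192 to 320 in dSPNs (346 with all mice), 53 to 136 in iSPNs (135), 154 to 294 in the average (317), 0 to 3 in astrocytes (0), 0 to 1 in Sst interneurons (0), 1 to 108 in oligodendrocytes (24), 94 to 115 for dSPN minus iSPN (145) and 0 to 3 for the interaction (1). With no filter they were 594 in the average, 2 in Sst interneurons, 2 in oligodendrocytes, 4628 for dSPN minus iSPN and 0 for the interaction. With a pseudocount of 5 UMIs they were 937 for dSPN minus iSPN and 3 for the interaction. Limma-voom called 6 in astrocytes, and summed UMIs gave 14 in oligodendrocytes. Without the 5.0% of nuclei with most UMIs they were 5 in astrocytes, 14 in oligodendrocytes and 0 for the interaction. The pseudocount was set for each type and stood at 3.666 CPM in dSPNs and 8.315 CPM in iSPNs. A gene with no UMIs in both types thus gets a dSPN minus iSPN value below 0. The part of this in the dSPN minus iSPN shifts was not tested, nor was the cause of the other shifts.

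No paired analysis was possible because the labels give no number that pairs WT with HttQ175/+ mice. Of the tested types, Sst interneurons had the fewest nuclei in a mouse (18 in WT replicate 1).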
